A study of Homo sapiens with 6 samples.

Results

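ALK, RET, NTRK2, NTRK3, ERBB3, NGFR, GFRA1, GFRA2 and GFRA3 encode growth factor receptors of neural crest and sympathetic nerve cells, and their loci were read in chromatin immunoprecipitation sequencing (ChIP-Seq) lists for N-Myc and JMJD6. The genes were chosen by name, with earlier results of these data known. For each gene the data were the listed promoters, typical enhancers and super-enhancers that named it, together with the binding peaks over those regions and inside the gene. They were 9 of 20136 protein-coding genes of the annotation. Of the 9, 6 were named in at least 1 list, while NTRK2, GFRA1 and GFRA3 were named in none. All 6 were in the N-Myc typical enhancer list, which named 31.9% of all coding genes. The cells were CHP-134, a single human neuroblastoma cell line with MYCN amplification and 17q gain, without drug or knockdown. The N-Myc group held 3 samples cross-linked with formaldehyde alone, and the JMJD6 group held 3 samples treated with disuccinimidyl glutarate (DSG) ahead of formaldehyde. A difference between the N-Myc and JMJD6 lists therefore cannot be told apart from a difference in cross-linking.

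Neuroblastoma arises from the sympathoadrenal lineage of the neural crest, in which these receptors pass signals for survival, migration and differentiation from the neurotrophins, the glial cell line-derived neurotrophic factor (GDNF) family, the neuregulins and the ALK ligands. ALK is the receptor tyrosine kinase most often mutated in neuroblastoma, and RET, NTRK2 (TrkB), NTRK3 (TrkC) and ERBB3 are receptors of the same broad class. GFRA1, GFRA2 and GFRA3 are membrane-anchored co-receptors that present GDNF, neurturin and artemin to RET, whereas NGFR is the neurotrophin receptor without a kinase domain. N-Myc binds DNA with its partner MAX at the E-box CACGTG and at related hexamers, and JMJD6 is a jumonji domain protein that acts on histones and other proteins.

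A peak here is a stretch of the genome that was called in all 3 samples of a protein, and the lists held 10172 such common peaks for N-Myc (median width 418 bp) and 561 for JMJD6 (435 bp), of which 241 were shared. The region lists held 5114 N-Myc and 177 JMJD6 promoters, 4649 and 96 typical enhancers, and 162 and 9 super-enhancers. The lists gave positions and gene names but no height, score or value per sample, which leaves the read depth of each peak unknown, gives no spread between samples and allowed no test. Intervals are exact (Clopper-Pearson) binomial 95% intervals, which cover counting error alone. Of the markers of adrenergic neuroblastoma, the sympathetic-like cell state, GATA3, HAND2, ISL1, PHOX2A and TH were named in the N-Myc typical enhancer list, GATA3 and HAND2 also in the super-enhancer list, and DBH in neither. None of these adrenergic markers was named in the N-Myc promoter list. Of 6 markers of the mesenchymal state only TWIST1 was named, in the N-Myc promoter and super-enhancer lists. Of all coding genes, 31.9% were named in the N-Myc typical enhancer list, 1.31% in the super-enhancer list and 17.5% in the promoter list. None of the markers above was named in a JMJD6 list. The JMJD6 shares of all coding genes were 0.909% for typical enhancers, 0.626% for promoters and 0.0745% for super-enhancers.

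Some of the sequences that carried E-boxes at these loci are printed here because the peaks differ in which hexamer they hold and where. Each is 150 bases of GRCh37, plus strand, and capitals mark the E-box CACGTG and its variants, the TG form CATGTG and the CpG form CACGCG, on either strand, so that a minus-strand match shows as its reverse complement.
ALK intron 9, chr2:29518910-29519059: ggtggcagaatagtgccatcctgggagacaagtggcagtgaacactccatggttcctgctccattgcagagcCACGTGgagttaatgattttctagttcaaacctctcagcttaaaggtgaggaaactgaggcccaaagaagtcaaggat
ALK intron 2, chr2:29929440-29929589: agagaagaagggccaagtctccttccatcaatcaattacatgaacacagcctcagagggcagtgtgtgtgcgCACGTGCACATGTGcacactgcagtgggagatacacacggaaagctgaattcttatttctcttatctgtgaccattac
ALK intron 5, chr2:29559310-29559459: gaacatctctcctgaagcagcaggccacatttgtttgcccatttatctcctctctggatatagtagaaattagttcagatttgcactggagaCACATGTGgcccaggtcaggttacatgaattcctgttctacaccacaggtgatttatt
YPEL5 promoter beside an ALK enhancer, chr2:30369361-30369510: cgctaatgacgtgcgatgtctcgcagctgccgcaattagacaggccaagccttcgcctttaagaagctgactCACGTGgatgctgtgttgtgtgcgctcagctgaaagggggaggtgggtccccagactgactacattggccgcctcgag
NGFR and PHB enhancer, chr17:47492421-47492570: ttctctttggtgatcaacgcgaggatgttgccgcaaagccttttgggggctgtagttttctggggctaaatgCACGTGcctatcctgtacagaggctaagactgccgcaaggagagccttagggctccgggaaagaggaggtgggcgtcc
NGFR intron 1, chr17:47575182-47575331: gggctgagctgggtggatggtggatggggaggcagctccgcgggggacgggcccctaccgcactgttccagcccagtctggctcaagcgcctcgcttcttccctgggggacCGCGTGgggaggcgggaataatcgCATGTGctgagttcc
NGFR and NXPH3 enhancer, chr17:47592650-47592799: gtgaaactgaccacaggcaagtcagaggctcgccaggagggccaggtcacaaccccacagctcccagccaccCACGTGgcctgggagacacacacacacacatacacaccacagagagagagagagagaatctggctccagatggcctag
NTRK3 and MRPL46 enhancer, chr15:88978949-88979098: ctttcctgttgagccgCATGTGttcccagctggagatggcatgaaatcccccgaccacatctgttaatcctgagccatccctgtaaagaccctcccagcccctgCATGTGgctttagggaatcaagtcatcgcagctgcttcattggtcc

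In ALK intron 2 the CACGTG was followed without a gap by a palindrome of 8 bases in which CATGTG reads on both strands. The ALK intron 5 window held the same palindrome with no CACGTG. The NTRK3 window held 2 separate CATGTG, and the NGFR intron 1 window held CACGCG and CATGTG. The remaining windows held 1 CACGTG each. These matches describe the letters and were not tested as sites.

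At promoters, N-Myc was listed at none of the 9 receptor genes and neither was JMJD6. A listed promoter reaches 1 kb to each side of a RefSeq start site. For N-Myc the count was 0 of 9 (95% CI 0 to 33.6%) against 17.5% of all coding genes, for JMJD6 0 of 9 against 0.626%, and for promoters bound by both proteins 0 of 9 against 0.298%. No receptor gene was named in a super-enhancer list, where the shares of all coding genes were 1.31% for N-Myc, 0.0745% for JMJD6 and 0.0546% for both. With 9 genes, an interval reaching 33.6% contains each of these background shares.

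In typical enhancers, 6 of the 9 genes were named for N-Myc (66.7%, 95% CI 29.9 to 92.5%), against 31.9% of all coding genes. The count was 3 of 9 when the receptor gene had to be the nearer of the genes named (against 19.2% of coding genes), and 3 of 9 when it had to lie within 100 kb (against 24.7%). ALK was named in 4 regions, NGFR and GFRA2 in 2 each, and RET, NTRK3 and ERBB3 in 1 each, which made 11 regions. At least 4 regions were found for 0.849% of coding genes. For JMJD6, NGFR alone was named (1 of 9, 11.1%, 95% CI 0.281 to 48.2%, against 0.909% of coding genes), in a region also listed for N-Myc (against 0.621% for both proteins). NGFR was not the nearer gene of that region, so no receptor gene was counted for JMJD6 by that rule, against 0.467% of coding genes. The list names up to 2 of the nearest genes with a signed distance to each start, so being named states proximity along the chromosome and not a contact.

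The listed distances ran from 20.2 kb (NGFR) to 619 kb (GFRA2), and ALK alone gave 4 of the 11 regions. Those of ALK were at 129, 216, 225 and 342 kb, and all but the 225 kb region lay inside the 729 kb gene. The median and the share over 100 kb that follow lean on these ALK regions, which are not independent of each other. The median listed distance between the 11 regions and their receptor gene was 176 kb, against 46 kb over all 8892 region-gene pairs of the N-Myc list, and 7 of 11 were over 100 kb (63.6%, against 34.4% of all pairs). The other named gene was nearer in 5 of 11 regions. Where a region names 2 genes, 1 of them is always the farther, and the share over the whole list was not computed. The count therefore describes these 11 regions only. In 4 of 11 regions (36.4%) the region overlapped a listed N-Myc promoter of another gene, against 52.8% of all N-Myc typical enhancers. The regions ranged from 376 bp to 9.73 kb with a median of 2.47 kb, beside 2.55 kb for the whole list.

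**Figure D1:**
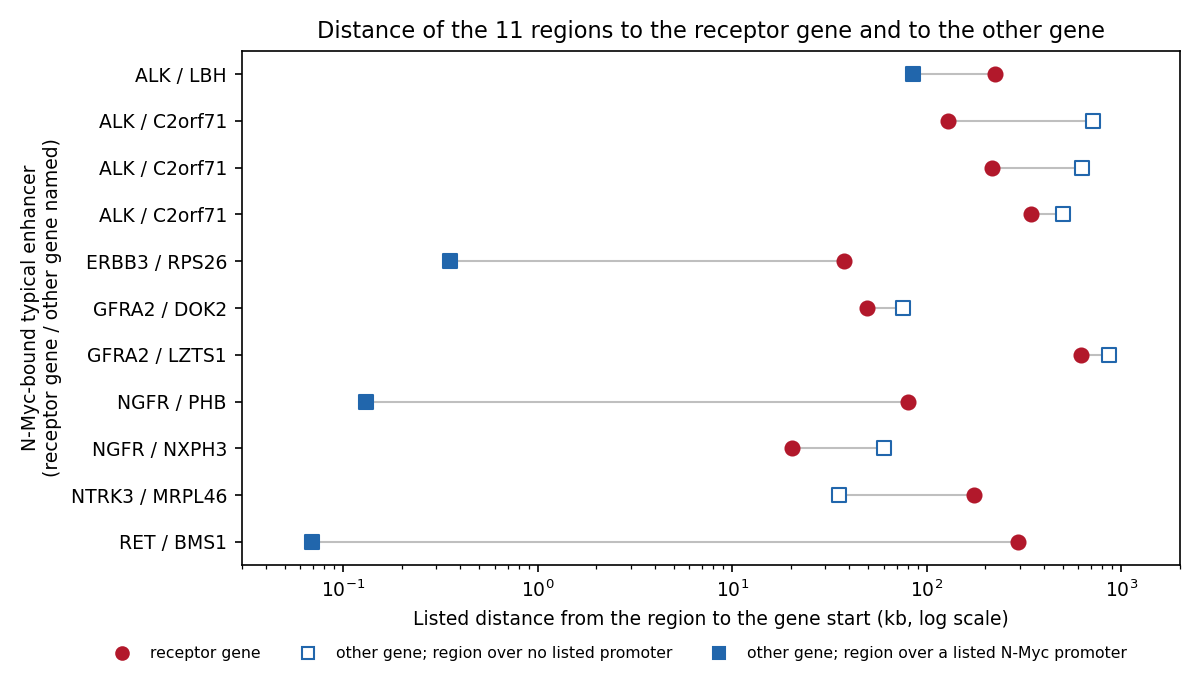
Listed distance in kb, on a log scale, from each of the 11 N-Myc typical enhancers to the start of its receptor gene (red circles) and of the other gene named (blue squares, filled where the region overlaps a listed N-Myc promoter). For RET, ERBB3 and the PHB region of NGFR the other gene lies under 1 kb away, whereas 6 regions, 3 of them in ALK, have the receptor gene as the nearer one; the filled square of the LBH region marks the promoter of YPEL5.

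ALK (ENSG00000171094, chr2:29415640-30144452 of GRCh37, minus strand, 29 exons) is the longest of the 9 genes at 729 kb, and it had the most listed regions and the most N-Myc peaks inside the gene. Of its 4 regions, 3 lay inside the gene and were named with C2orf71, a photoreceptor gene farther away. The region in intron 1 (chr2:30010636-30020368, 9.73 kb) was listed 129 kb from the ALK start and held 1 N-Myc peak of 505 bp with a CATGTG and no CACGTG. The region in intron 2 (chr2:29926267-29929765, 3.5 kb) was 216 kb away and held 1 peak of 583 bp, with the CACGTG of the sequence above 76.5 bp from the peak centre. The region in intron 3 (chr2:29800225-29804007, 3.78 kb) was 342 kb away and held no common peak, the nearest being 125 kb off, although 96.9% of N-Myc typical enhancers held one.

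The remaining ALK region was 376 bp long (chr2:30368951-30369326), upstream of the gene at 225 kb, and was named with LBH, a transcriptional regulator 85.3 kb away. It overlapped the listed N-Myc promoter of YPEL5, and its peak (383 bp) lay 117 bp from the centre of that promoter. The peak overlapped the region by 77 bp only, and its CACGTG, at -5.5 bp from the peak centre (negative is to the left on the plus strand), lay outside the region that named ALK. Inside ALK there were further N-Myc peaks in intron 5 (323 bp) and intron 9 (391 bp, CACGTG 55.5 bp from its centre), 585 and 625 kb from the start, and neither lay in a listed region. The 4 peaks within ALK therefore stood at 131, 215, 585 and 625 kb along the gene. The nearest JMJD6 peak to the ALK start was 2.82 Mb away.

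**Figure D2:**
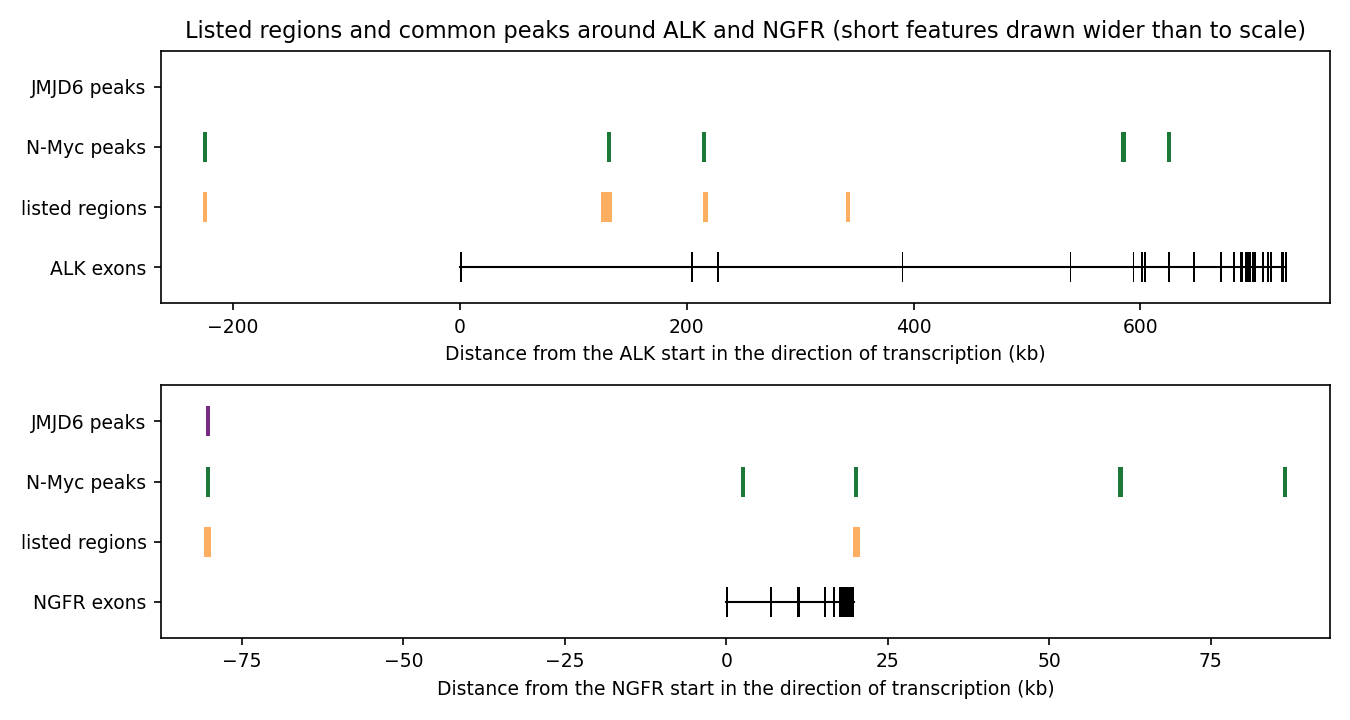
Exons (black), listed N-Myc typical enhancers naming the gene (orange), common N-Myc peaks (green) and common JMJD6 peaks (purple) along ALK and NGFR, with distance from the gene start in kb in the direction of transcription and short features drawn wider than to scale. ALK holds 4 N-Myc peaks in introns and no JMJD6 peak, and the JMJD6 peak of the NGFR map coincides with an N-Myc peak 80 kb upstream.

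RET (ENSG00000165731, chr10:43572512-43625799, plus strand), the signalling receptor of the GDNF family, was named in 1 region (chr10:43277570-43279066, 1.5 kb) at 294 kb. The same region was listed 69 bp from the start of BMS1, a ribosome biogenesis factor, and overlapped the listed BMS1 promoter. Its peak (307 bp, the narrowest of the set) lay over the BMS1 untranslated exon and held none of the 3 hexamers. No N-Myc peak lay within RET or 100 kb of it, and 84.2% of coding genes had a nearest N-Myc peak at most as far as that of RET.

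NTRK3 (ENSG00000140538, chr15:88402982-88800022, minus strand), the receptor of neurotrophin-3, was named in 1 region (chr15:88971139-88979621, 8.48 kb) upstream at 176 kb. The other gene of the region, MRPL46, which encodes a mitochondrial ribosomal protein, was nearer at 35.3 kb. The peak (383 bp) was intergenic, lay over no listed promoter and held the 2 CATGTG printed above. NTRK2 (ENSG00000148053, chr9:87283290-87710666, plus strand), the receptor of brain-derived neurotrophic factor, was named nowhere. Its nearest N-Myc peak was 497 kb from the start, the longest distance among the 9 genes, and no peak lay within the 427 kb of the gene or 100 kb around it.

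ERBB3 (ENSG00000065361, chr12:56470583-56497289, plus strand), the neuregulin receptor that signals in pairs with ERBB2, was named in 1 region (chr12:56434757-56437225, 2.47 kb) at 37.7 kb. That region lay 354 bp from the start of RPS26, a ribosomal protein gene, over its listed promoter, and its peak (615 bp) held CATGTG. ERBB3 stood in the densest surroundings of the set, with 10 N-Myc peaks within 100 kb of the gene, a number reached by 0.611% of coding genes, and with 12 other coding genes starting there against a median of 4. All 10 peaks lay over listed promoters of other genes and none inside ERBB3. The closest, 27.4 kb from the ERBB3 start, lay at the start of PA2G4, which encodes an ERBB3-binding protein and was singled out after its values were seen.

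NGFR (ENSG00000064300, chr17:47572655-47592370, plus strand) was the only receptor gene with a JMJD6 row, and the nearest to an N-Myc peak. One of its regions (chr17:47491861-47492886, 1.03 kb) was listed for N-Myc, for JMJD6 and for both, as were 1.4% of N-Myc typical enhancers. It lay 80.3 kb upstream of NGFR but 131 bp from the start of PHB (prohibitin, PHB1 in the annotation), over PHB promoters listed for both proteins. Its peak (596 bp) had the same start and end in both peak lists, and held a CACGTG 98 bp from the centre. Of all N-Myc peaks, 2.37% were shared with JMJD6.

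The other NGFR region (chr17:47592237-47593428, 1.19 kb) covered the end of the gene and was listed 20.2 kb from the NGFR start, with NXPH3, a neurexophilin gene, at 60.4 kb. Its peak (477 bp) lay just past NGFR, in an intron of the antisense gene NGFR-AS1, with a CACGTG at -12.5 bp from the centre. A further N-Myc peak (375 bp) lay in NGFR intron 1, 2.42 kb from the gene start, outside every listed promoter and enhancer. Its midpoint was 504 bp from the start of an annotated shorter NGFR transcript. When a promoter was defined by the annotation, as a peak midpoint within 1 kb of any annotated start, NGFR alone of the 9 genes was counted for N-Myc, against 20.2% of coding genes, and none for JMJD6, against 0.74%.

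Among the co-receptors, GFRA1 (ENSG00000151892, chr10:117816436-118036315, minus strand), the GDNF co-receptor, was named in no list but held an N-Myc peak of 452 bp in intron 4 (chr10:117984361-117984812), 51.5 kb from the start. The centre of this peak is shown because it was the only peak in the gene and lay outside every listed region.
GFRA1 intron 4, chr10:117984512-117984661: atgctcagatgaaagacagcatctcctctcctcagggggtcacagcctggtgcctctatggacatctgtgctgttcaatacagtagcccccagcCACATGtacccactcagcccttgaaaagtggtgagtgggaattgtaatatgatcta
It held a CATGTG 22 bp from the peak centre and no CACGTG. GFRA3 (ENSG00000146013, chr5:137588069-137610310, minus strand), the artemin co-receptor, held no peak, and the nearest lay 95.3 kb from its start over the promoters of BRD8 and KIF20A.

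GFRA2 (ENSG00000168546, chr8:21547910-21669869, minus strand), which binds neurturin, was named in 2 regions with the receptor gene nearer in both. The closer one (chr8:21692958-21698085, 5.13 kb) was intergenic, listed 49.2 kb upstream with the adaptor gene DOK2 at 75.8 kb, and its peak (708 bp, the widest of the set) lay 26.2 kb from the annotated start. The listed and recomputed distances of GFRA2 differed by 23547 bp, the largest difference among the 11 regions (median 20 bp). The farther one (chr8:21026569-21028088, 1.52 kb) was 619 kb downstream of the start, with LZTS1 at 866 kb, and its peak (611 bp) held CATGTG. None of the 3 hexamers was found in the closer peak.

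Within the gene bodies, N-Myc had 6 peaks in 3 of the 9 genes, 4 in ALK, 1 in NGFR and 1 in GFRA1 (33.3%, 95% CI 7.49 to 70.1%, against 25.9% of coding genes). Among genes of at least 200 kb the share was 2 of 4, ALK and GFRA1 but not NTRK2 or NTRK3, against 53.5% of 1502 coding genes of that length. Of the 6 peaks, 4 lay outside every listed promoter and enhancer, as did 36.1% of all N-Myc peaks. JMJD6 had no peak in any of the 9 genes, against 1.11% of coding genes, or 1.93% of those of at least 200 kb.

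The distance from the gene start to the nearest N-Myc peak was 2.42 kb for NGFR, 26.2 kb for GFRA2, 27.4 kb for ERBB3, 51.5 kb for GFRA1, 95.3 kb for GFRA3, 131 kb for ALK, 179 kb for NTRK3, 294 kb for RET and 497 kb for NTRK2. The median of the 9 was 95.3 kb beside 58.8 kb over all coding genes, and 5 of the 9 were farther than that. From any annotated start, shorter transcripts included, the distance was 0.317 kb for NGFR, 4.3 kb for ERBB3 and 10.8 kb for ALK. It was 30.5 kb for GFRA1 and 287 kb for RET, with little or no change for the other genes. The 58.8 kb over all coding genes rests on the gene start alone. For JMJD6 the distances from the gene start ran from 80 kb for NGFR and 972 kb for RET to 6.06 Mb for GFRA1 and 8.59 Mb for NTRK3, with a median of 2.82 Mb beside 2.53 Mb. NGFR alone, with 4.53% of coding genes at most as far, had a JMJD6 peak closer than 972 kb.

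**Figure D3:**
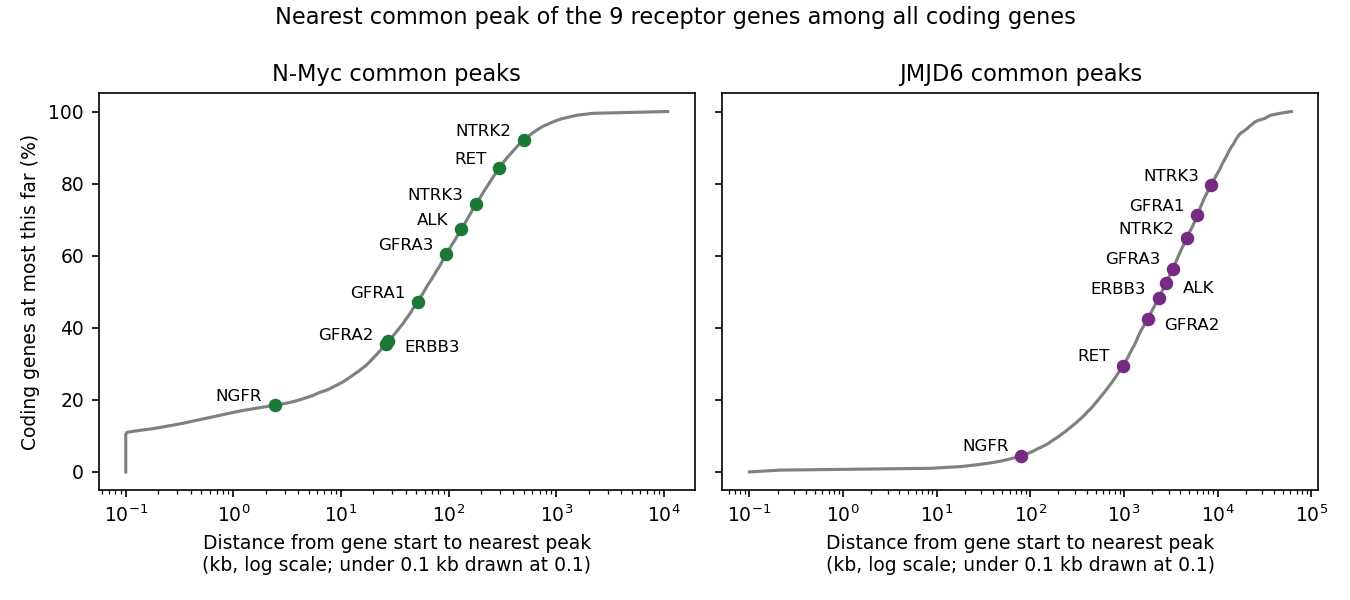
Percent of coding genes (y axis) whose start lies at most a given distance in kb (x axis, log scale) from the nearest common peak of N-Myc (left) or JMJD6 (right), with the 9 receptor genes as points. For N-Myc the genes spread from 18.5% (NGFR) to 92.1% (NTRK2), and for JMJD6 from 4.53% (NGFR) to 79.7% (NTRK3).

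Of the 10 N-Myc peaks in the named regions, 4 held CACGTG (40%, 95% CI 12.2 to 73.8%), against 33.4% of all 10172 N-Myc peaks, 31.5% of the 6352 peaks over 1 kb from every coding start, and 5.21% of windows of equal width 5 kb downstream. These 4 were the ALK intron 2 peak, the YPEL5 promoter peak and both NGFR region peaks, and in 3 of them the CACGTG lay inside the named region, the YPEL5 promoter peak being the exception. CATGTG was in 6 of the 10 peaks, against 42.1% of all N-Myc peaks, 52.9% of those over 1 kb from a coding start and 26% of the downstream windows. Within 100 bp of the peak centre CATGTG was in 3 of the 10, against 28.4% of all N-Myc peaks and 37.3% of those over 1 kb from a coding start. The 10 peaks were wide, with a median of 544 bp beside 418 bp for all. Among peaks at least as wide as that 418 bp median, 5 of 7 held CATGTG, against 46.1%. CATGTG was also in all 6 peaks within the receptor genes (95% CI 54.1 to 100%), a pattern noticed after the values were seen. The shares beside it are again 42.1% of all N-Myc peaks and 52.9% of those over 1 kb from a coding start. Because 4 of the 6 peaks lay in ALK, they are not independent, and the interval is narrower than it should be. In 5 of these 6 peaks it lay within 100 bp of the centre, against the same 28.4% and 37.3%. With the 4 peaks inside genes but outside the named regions added, CACGTG was in 5 of 14 peaks, against 33.4% of all N-Myc peaks. CATGTG was in 10 of the 14 (71.4%, 95% CI 41.9 to 91.6%), against 42.1%, or 52.9% over 1 kb from a coding start. Several of the 14 peaks share a gene, which this interval leaves out.

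**Figure D4:**
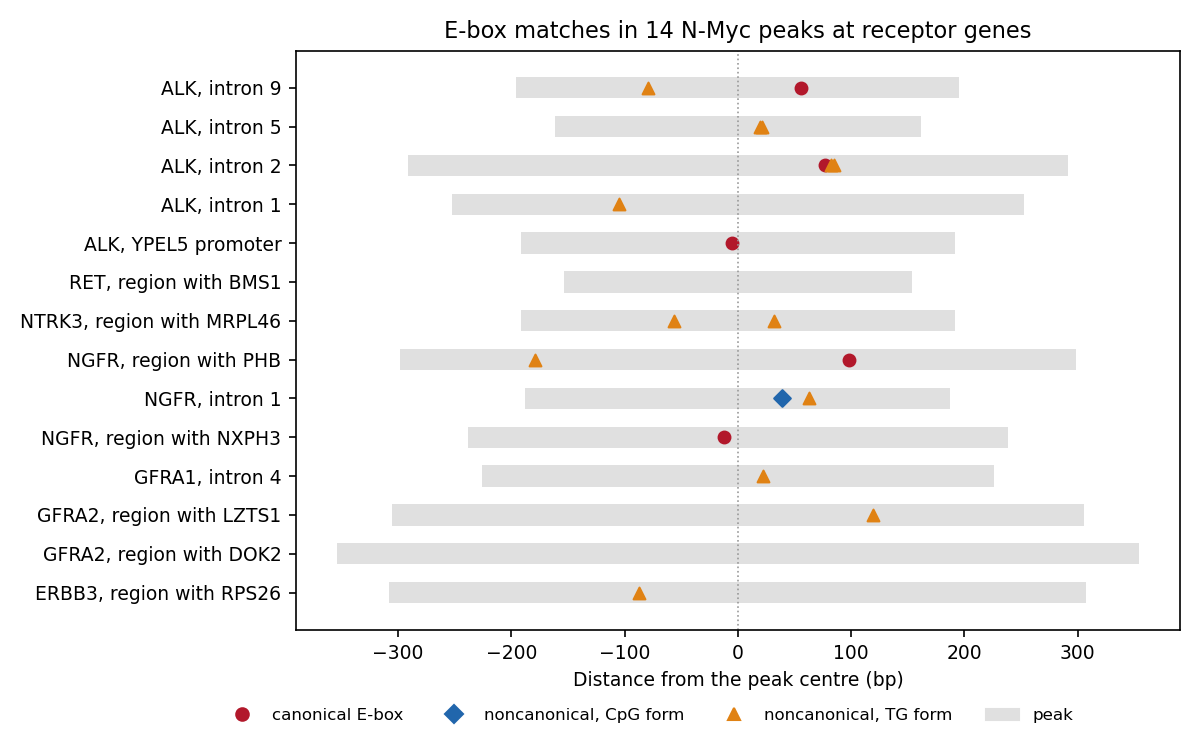
Positions of the canonical E-box CACGTG (circles), its CpG form CACGCG (diamond) and its TG form CATGTG (triangles) in the 14 N-Myc peaks (grey bars), in bp from the peak centre on the plus strand. The CACGTG of the YPEL5 promoter peak and of the NXPH3 region lie at -5.5 and -12.5 bp from the centre, and the peaks of the BMS1 and DOK2 regions hold none of the 3 hexamers.

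RefSeq promoter windows, from 250 bases before to 50 after each start on GRCh38.p14, were at hand for 6 of the 9 genes in 14 windows. CACGTG was in 1 of the 14, an ALK window (7.14%, against 7.26% of 35116 windows of all genes), and CACGCG in 4, 1 each of GFRA1, GFRA3, NTRK2 and RET (28.6%, against 11.4%). None of these 5 genes had a listed promoter for N-Myc. The ALK window with CACGTG (chr2:29223774-29224073 of GRCh38.p14) belonged to a start far inside the gene. The ALK window at the 5' end of the gene (chr2:29921537-29921836) held neither CACGTG nor CACGCG.

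The 66 ligands, further receptors, adaptors, effectors and negative regulators of the same pathways were counted in the same lists. N-Myc promoters were listed for 5 of 66 (7.58%, against 17.5% of coding genes) and N-Myc typical enhancers for 25 (37.9%, against 31.9%). By role, typical enhancers named 4 of 17 ligands and co-receptors, 2 of 7 further receptors, 15 of 32 adaptors and effectors and 4 of 10 negative regulators, beside 6 of the 9 receptors described here. PIK3R1, the regulatory subunit of phosphoinositide 3-kinase, was the only one of the 66 named in a super-enhancer (chr5:68166702-68197310, 30.6 kb), which was listed at 670 kb and held 2 N-Myc peaks. That is 1.52% of the list, against 1.31% of coding genes, and the other gene named was nearer at 207 kb. For JMJD6 the only one was DUSP4, a phosphatase that acts on MAP kinases, named at 536 kb in a typical enhancer with 1 shared peak (chr8:29742597-29745774). That is again 1.52%, against 0.909% of coding genes, and the other gene named was nearer at 197 kb. Neither the receptors nor these partners were named in a JMJD6 promoter list.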

How the data were processed

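ChIP-Seq of CHP-134 cells was grouped by the antibody in the labels, N-Myc or JMJD6, with 3 samples each. Per the study's methods and the submitters' processing notes, the authors used BWA for alignment, SAMtools and bedtools for file handling and MACS2 for peak calling against input (version 2.1.1.20160309, q maximum 0.05). Promoters spanned 1 kb on each side of RefSeq starts, ROSE defined typical enhancers and super-enhancers from H3K27ac, and GREAT named their nearest genes. The 12 deposited lists hold positions (GRCh37) of peaks or regions that the study describes as bound in all samples of a protein, pooled by the authors, with no count, score or sample column. Whether the samples came from separate cultures is not given in the sources used here.

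Symbols were matched to GENCODE 44 lifted to GRCh37: of the N-Myc promoter symbols 3531 of 4150, and of the typical enhancer symbols 6415 of 6486, matched a coding gene. Background shares use all 20136 coding genes. Overlap meant at least 1 bp, positions are 1-based, and motifs were counted on both strands. Python 3.11.15, numpy 2.4.6, SciPy 1.17.1, pysam 0.24.0 and matplotlib 3.10.9 were used, and the overlap and motif steps were tested on simulated data. All 9 receptor genes were named, with the genes listed beside them, those whose promoters overlapped their regions, and the partners with a super-enhancer or a JMJD6 region. The receptor genes, the pathway list and the markers were chosen with earlier results of these data known. Some markers of the list are not reported here.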

Additional observations from a re-analysis of the deposited data

How the results depend on the processing

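The lists rest on positions alone, so a stricter peak threshold could be imitated only by width and no sample could be left out in turn. No paired analysis was possible because the lists hold no values per sample and the results come from no test. Counts for N-Myc moved as follows. Genes with a promoter went from 0 to 1 (NGFR) when a peak midpoint within 1 kb of an annotated start was counted. Genes with a typical enhancer went from 6 to 3 when the receptor gene had to be the nearer one named, and to 3 when it had to be within 100 kb. The 11 regions became 6 and 4 under those settings, and 7 without regions over another gene's listed promoter. Peaks went from 10 to 6, and peaks with CACGTG from 4 to 2, when gene bodies replaced the listed regions, a setting chosen after seeing the data. For JMJD6 the 1 gene and 1 region became 0 with the nearer gene required and 0 without other genes' promoters. The JMJD6 peak count went from 1 to 0 with gene bodies, with or without 10 kb on both sides. The JMJD6 peak with CACGTG went from 1 to 0 with 100 bp on each side of the centre, and to 0 in gene bodies. Counting only a CACGTG inside the listed region, also chosen after seeing the data, gave 3 for N-Myc and 1 for JMJD6. The other 36 recomputed counts stayed within 1.5 times the reported ones. Among these 36, genes with an N-Myc typical enhancer went from 6 to 4 without regions over another gene's listed promoter. They also went from 6 to 4 with peaks at least as wide as the median, and both counts lie exactly at that limit.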
